A study of Mus musculus with 6 samples.

Results

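Each of the 21 genes described here had an array probe that lacked a ratio on some of the arrays. On the others, that probe gave a large, single-signed response of RAW 264.7 cells, a mouse macrophage line, to lipopolysaccharide. Cells left untreated in culture for 1 h were compared with cells given LPS (lipopolysaccharide, 100 ng/ml), a component of the outer membrane of Gram-negative bacteria, together with LBP (LPS-binding protein, 100 pM), the serum protein that delivers LPS to its receptor, for the same 1 h. Each of 6 dual-channel arrays received total RNA from treated and untreated cells. On 3 arrays the treated RNA was in Cy5 and on the other 3 it was in Cy3 (here the Cy5 arrays and the Cy3 arrays), each numbered as sets 1 to 3. The values are log2 ratios, given throughout as treated over untreated RNA, so that 1 stands for a doubling. Whether the sets came from separate cultures is not stated in the labels, so the spread between arrays may be technical. Cy5 was taken as the numerator because the labels name the Cy5 sample as the test, and with Cy3 as the numerator all signs would be opposite.

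An exact 0 in the table was taken as no measured ratio. A gene belongs to the group when its annotation gives 1 symbol, none of its probes has a ratio on all 6 arrays, and a probe listed at 0 on 1 to 3 arrays has measured ratios of a single sign with an absolute mean of 0.5 or more. Of 10698 genes with 1 symbol, 8331 had a probe measured on all arrays and 1861 others had a probe listed at 0 on 1 to 3 arrays. The rule found 26 genes among the latter, and Cxcl2, Ccl3, Nfkbia, Acod1 and Arc were left out, which leaves 21 genes with 22 probes. The members were thus chosen on the sign and size of these same ratios, and their values are a description with no test. All 21 are named.

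LPS is sensed by macrophages through Toll-like receptor signalling, which activates NF-kappaB and the MAP kinases. These enter the nucleus or act on factors there, and within an hour they switch on genes of chemokines, cytokines, surface receptors and feedback inhibitors, while other transcripts are lost. The genes below belong to several of these classes. They include a chemokine, a chemoattractant receptor, a costimulatory ligand, an autophagy receptor and a MAP kinase phosphatase, beside genes better known from other tissues.

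Of the 21 genes, 16 were higher in treated RNA and 5 were lower. The 16 were 0.86% of the 1861 genes counted above, and the 5 were 0.269%. Those 1861 still include Cxcl2, Ccl3, Nfkbia, Acod1 and Arc, which met the size and sign conditions but are in neither share. For the 8331 genes without missing ratios, the size and sign conditions were put to the average of a gene's complete probes on all 6 arrays. By these, 2.16% were higher and 0.78% were lower. A member needed only a single probe to meet the conditions, and a single sign over fewer arrays is met more easily. These shares therefore cannot be set directly against each other. The means of the 16 had a median of 0.69 and those of the 5 a median of -0.77. A mean of 1 or more was reached by Ccrl2, Icosl, Ccl20, Sqstm1 and Il9, and a mean of -1 or less by Dusp6. Precision is limited by how few arrays there were. The SD over the measured arrays of a gene ran from 0.08 for Zfp398 to 0.60 for Il9, with a median of 0.26.

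**Figure D1:**
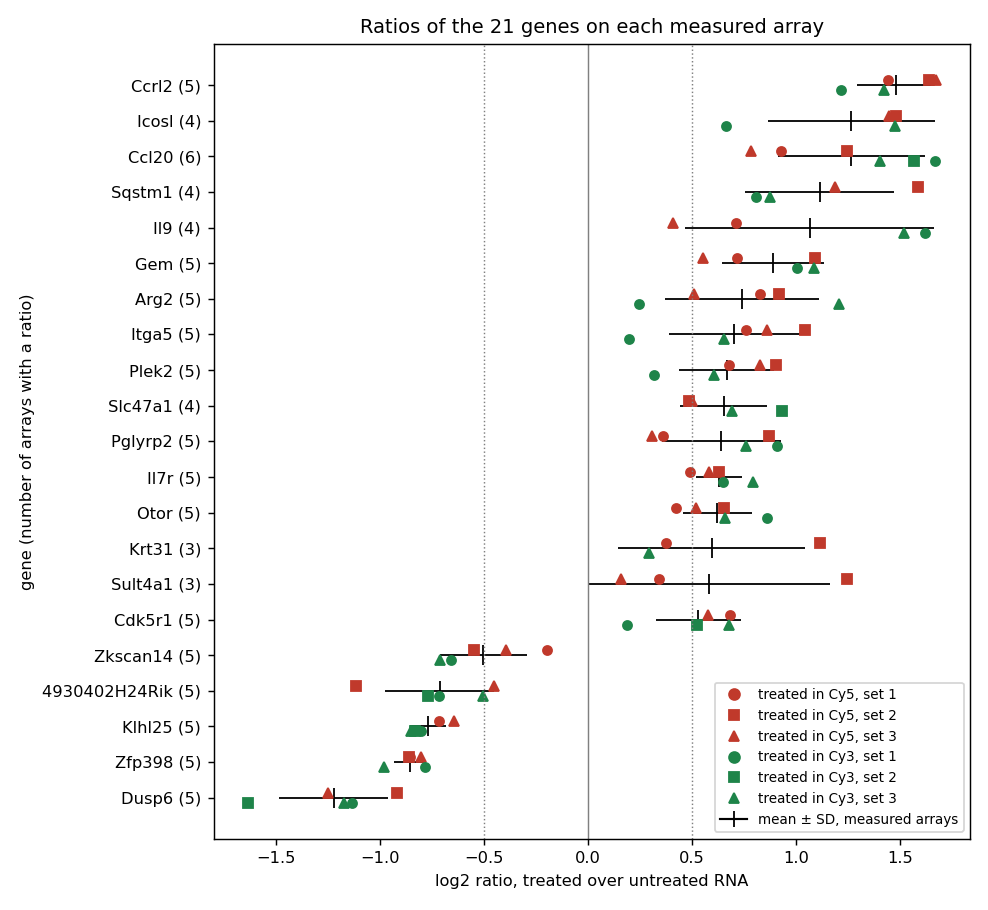
Log2 ratios of treated over untreated RNA (horizontal axis) of the 21 genes on each array where they were measured, with the number of such arrays in brackets. Symbols show dye orientation and set, black bars the mean ± SD over measured arrays, and dotted lines the 0.5 threshold of the rule. Klhl25 and Zfp398 lie in narrow bands, while Il9 and Sult4a1 are spread widely.

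The immune surface and secreted proteins held the highest ratios. Ccrl2, an atypical chemoattractant receptor that binds chemerin without the usual G-protein signalling, had ratios of 1.44, 1.64 and 1.67 on the Cy5 arrays of sets 1, 2 and 3 and of 1.22 and 1.42 on the Cy3 arrays of sets 1 and 3. Its mean was 1.48 ± 0.18 (SD, n = 5 arrays), or 2.79-fold. On this probe all 5 measured arrays were more than 2-fold higher in treated RNA, with the Cy5 arrays above the Cy3 arrays. The other probe of Ccrl2, described below, averaged 0.05 on 4 of the same arrays.

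Ccl20 encodes a chemokine that attracts cells bearing the receptor CCR6, such as dendritic and some T cells. It was the only member with more than 1 probe that met the rule. One probe gave 0.71, 1.47 and 0.54 on the Cy5 arrays of sets 1, 2 and 3 and 2.02 and 1.57 on the Cy3 arrays of sets 1 and 2. The other gave 1.14, 1.02 and 1.03 on the Cy5 arrays and 1.32 and 1.41 on the Cy3 arrays of sets 1 and 3. Since the probes lacked different arrays, their array-wise average covered all 6 arrays, at 1.27 ± 0.35 (SD, n = 6 arrays), or 2.41-fold. The probe means of 1.26 and 1.18 differed by less than the SD of either probe (0.62 and 0.17), and the averaged ratios were higher on every Cy3 array than on any Cy5 array.

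Icosl, the ligand of the T-cell costimulatory receptor ICOS, had ratios of 1.48 and 1.45 on the Cy5 arrays of sets 2 and 3 and of 0.66 and 1.48 on the Cy3 arrays of sets 1 and 3. The mean was 1.27 ± 0.40 (SD, n = 4 arrays), or 2.41-fold. The Cy3 array of set 1 was low and the other 3 lay close together.

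Promoter sequences are shown for the members with a match to the kappaB consensus, the DNA site of NF-kappaB. RefSeq promoter windows of assembly GRCm38.p6, running from 250 bases before to 50 bases after each annotated start, were found for 15 of the 21 genes (18 windows). No window was found under the symbols Arg2, Cdk5r1, Gem, Slc47a1, Sult4a1 and Zkscan14. On either strand, the kappaB consensus was matched in windows of 5 of the 15 genes, 4 of them higher in treated RNA (Ccl20, Ccrl2, Icosl and Sqstm1) and 1 lower (4930402H24Rik). It was matched in 8.46% of all 32851 windows and in 9.55% of all 27025 genes of the table. The stretches below are printed 5′ to 3′ on the strand of the gene and end before the start, with the kappaB match in capitals.
Ccl20: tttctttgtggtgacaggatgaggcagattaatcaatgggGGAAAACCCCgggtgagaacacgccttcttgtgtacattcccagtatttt
Ccrl2: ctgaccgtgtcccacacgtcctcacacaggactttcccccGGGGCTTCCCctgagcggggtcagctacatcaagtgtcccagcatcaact
Icosl: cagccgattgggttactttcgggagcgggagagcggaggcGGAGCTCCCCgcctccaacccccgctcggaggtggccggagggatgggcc
Sqstm1: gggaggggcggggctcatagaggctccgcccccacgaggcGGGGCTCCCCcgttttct
4930402H24Rik: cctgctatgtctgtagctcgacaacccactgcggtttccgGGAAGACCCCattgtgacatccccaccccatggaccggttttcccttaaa

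The stretch of Ccl20 lies at chr1:83116646-83116735 on the plus strand, with the match 80 to 71 bases before the start. That of Ccrl2 lies at chr9:111057525-111057614 on the minus strand, with the match at 56 to 47 bases, in 1 of the 3 windows of the gene. The stretch of Icosl is at chr10:78069217-78069306 on the plus strand (111 to 102 bases before the start). For Sqstm1 it is chr11:50210821-50210878 on the minus strand (18 to 9 bases). The stretch of 4930402H24Rik is chr2:130839713-130839802 on the minus strand (75 to 66 bases), from 1 of its 2 windows. A match is a run of letters and not a shown binding site. Of the other motifs searched on both strands, the AP-1 site TGANTCA was matched in Il9 (7.81% of all windows) and TATAAA in Krt31, Otor and Sqstm1 (13.6% of all windows). From the start, the TATAAA matches lay at -29 to -24 in Krt31 and -35 to -30 in Otor. In Sqstm1 the match ran across the start, from -1 to 4. The cyclic AMP response element TGACGTCA (1.79% of all windows) and the CArG box (1.63%) had no match in the 18 windows.

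A further 3 genes of this class encode a cytokine, a cytokine receptor and a bacterial sensor. Il9, a cytokine gene best known from T helper and mast cells, gave 0.71 and 0.41 on the Cy5 arrays of sets 1 and 3 and 1.62 and 1.52 on the Cy3 arrays of the same sets. Its mean of 1.07 ± 0.60 (SD, n = 4 arrays) thus joined orientation means of 0.56 and 1.57 that did not overlap, the widest gap between orientations among the members. The Cy3 arrays placed it above a doubling and the Cy5 arrays did not.

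Il7r, the alpha chain of the interleukin-7 receptor of lymphocytes and their precursors, was steadier. It gave 0.49, 0.63 and 0.58 on the Cy5 arrays and 0.65 and 0.79 on the Cy3 arrays of sets 1 and 3, with a mean of 0.63 ± 0.11 (SD, n = 5 arrays), or 1.55-fold. Pglyrp2, an amidase that cleaves bacterial peptidoglycan and is made mainly in liver, gave 0.36, 0.87 and 0.31 on the Cy5 arrays and 0.91 and 0.76 on the Cy3 arrays of sets 1 and 3, with a mean of 0.64 ± 0.29. Its orientations overlapped through the high Cy5 array of set 2.

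Among signalling proteins and enzymes, Sqstm1 had the highest ratios. It encodes p62, a receptor of selective autophagy that also serves as a scaffold in NF-kappaB signalling. Sqstm1 gave 1.59 and 1.19 on the Cy5 arrays of sets 2 and 3 and 0.81 and 0.87 on the Cy3 arrays of sets 1 and 3, with a mean of 1.11 ± 0.36 (SD, n = 4 arrays), or 2.16-fold. All 4 ratios were above 0.5, and the Cy5 arrays lay above the Cy3 arrays.

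Gem, a small GTPase that inhibits voltage-gated calcium channels, gave 0.71, 1.09 and 0.55 on the Cy5 arrays and 1.01 and 1.09 on the Cy3 arrays of sets 1 and 3. The mean was 0.89 ± 0.24 (SD, n = 5 arrays), or 1.85-fold, with overlapping orientations. Arg2, the mitochondrial arginase, gave 0.83, 0.92 and 0.51 on the Cy5 arrays and 0.25 and 1.21 on the Cy3 arrays of sets 1 and 3, with a mean of 0.74 ± 0.37. Its orientation means of 0.75 and 0.73 were close, although the lowest and the highest ratio both came from Cy3 arrays.

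Cdk5r1, which encodes the p35 activator of the kinase Cdk5, stood nearest the threshold on the higher side. Its ratios were 0.68 and 0.58 on the Cy5 arrays of sets 1 and 3 and 0.19, 0.52 and 0.68 on the Cy3 arrays of sets 1, 2 and 3, with a mean of 0.53 ± 0.20 (SD, n = 5 arrays). It is 1 of 2 higher genes, with Slc47a1, measured on the Cy3 array of set 2 by its only qualifying probe. Without set 3 its mean was 0.46, under the threshold.

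In the same class, Dusp6 and Klhl25 were lower in treated RNA. Dusp6, a cytoplasmic phosphatase that inactivates the MAP kinase ERK and is itself a product of ERK signalling, gave -0.92 and -1.25 on the Cy5 arrays of sets 2 and 3 and -1.14, -1.63 and -1.17 on the Cy3 arrays. The mean was -1.22 ± 0.26 (SD, n = 5 arrays), or 2.33-fold lower, the largest of the lower members. The orientations overlapped, and 4 of the 5 arrays placed it more than 2-fold lower.

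Klhl25, an adaptor of cullin ubiquitin ligases that directs the translation repressor 4E-BP1 to degradation, had ratios of -0.72 and -0.64 on the Cy5 arrays of sets 1 and 3 and of -0.80, -0.83 and -0.85 on the Cy3 arrays. The mean was -0.77 ± 0.09 (SD, n = 5 arrays), or 1.70-fold lower. The 5 arrays lay within a narrow band, and the Cy3 arrays were all below the Cy5 arrays.

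Both zinc finger genes of the group were lower as well. Zfp398 gave -0.86, -0.86 and -0.81 on the Cy5 arrays and -0.78 and -0.98 on the Cy3 arrays of sets 1 and 3, with a mean of -0.86 ± 0.08 (SD, n = 5 arrays), or 1.81-fold lower, the narrowest spread of the 21 genes. Zkscan14, a zinc finger protein gene with the SCAN and KRAB domains of its family, gave -0.20, -0.55 and -0.40 on the Cy5 arrays and -0.66 and -0.71 on the Cy3 arrays of sets 1 and 3. Its mean of -0.50 ± 0.21 lay just inside the threshold, and without set 2 (-0.49) or set 3 (-0.47) it lay outside. 4930402H24Rik, a protein-coding gene known by its clone name, gave -1.12 and -0.45 on the Cy5 arrays of sets 2 and 3 and -0.72, -0.77 and -0.51 on the Cy3 arrays, with a mean of -0.71 ± 0.26.

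Genes of adhesion and the cytoskeleton were all on the higher side. Itga5, the alpha subunit of the fibronectin-binding integrin, gave 0.76, 1.04 and 0.86 on the Cy5 arrays and 0.20 and 0.65 on the Cy3 arrays of sets 1 and 3, with a mean of 0.70 ± 0.32 (SD, n = 5 arrays), or 1.63-fold. Plek2, a relative of pleckstrin that acts on the actin skeleton at membranes, gave 0.68, 0.90 and 0.83 on the Cy5 arrays and 0.32 and 0.60 on the Cy3 arrays of sets 1 and 3, with a mean of 0.67 ± 0.23. In both genes every Cy5 array lay above every Cy3 array, and the Cy3 array of set 1 was lowest.

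Krt31, a hair keratin gene, was measured on 3 arrays only, at 0.38 and 1.11 on the Cy5 arrays of sets 1 and 2 and 0.29 on the Cy3 array of set 3. Its mean of 0.59 ± 0.45 was carried by the Cy5 array of set 2 and was 0.34 without it, under the threshold.

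Of the remaining higher genes, Slc47a1, a proton-coupled exporter of organic cations in kidney and liver, gave 0.48 and 0.50 on the Cy5 arrays of sets 2 and 3 and 0.93 and 0.69 on the Cy3 arrays of the same sets. Its mean was 0.65 ± 0.21 (SD, n = 4 arrays). Otor, a secreted protein gene of the inner ear, gave 0.42, 0.65 and 0.52 on the Cy5 arrays and 0.86 and 0.66 on the Cy3 arrays of sets 1 and 3, with a mean of 0.62 ± 0.17. Both genes were higher on every Cy3 array than on any Cy5 array.

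Sult4a1, a sulfotransferase family gene of the brain, was measured on the Cy5 arrays only, at 0.34, 1.25 and 0.16. Its mean of 0.58 ± 0.58 (SD, n = 3 arrays) has no array of the opposite dye orientation, so treatment and dye cannot be told apart, and without the array of set 2 it was 0.25. It is the single member for which the orientations cannot be compared.

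Between orientations, the other 20 genes differed by a median of 0.29 in absolute value, against 0.14 for the 245 genes without missing ratios that met the size and sign conditions. In 12 of the 20 the Cy5 mean lay above the Cy3 mean. No matching count is given for the 245 genes, nor for orientations that did not overlap. With so few arrays in each orientation such separation arises easily, so the separations noted gene by gene are descriptions. The members' median SD of 0.26 likewise stood beside 0.16 for those 245 genes, of which 180 were higher (73.5%) and 65 were lower. The 245 were measured on 6 arrays each and averaged over all their probes without missing ratios, so these are descriptions side by side and not a test. Over all probes measured on both arrays of a pair, arrays of the same orientation correlated at r = 0.58 to 0.79, and turned arrays of opposite orientation at r = -0.05 to 0.52.

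**Figure D2:**
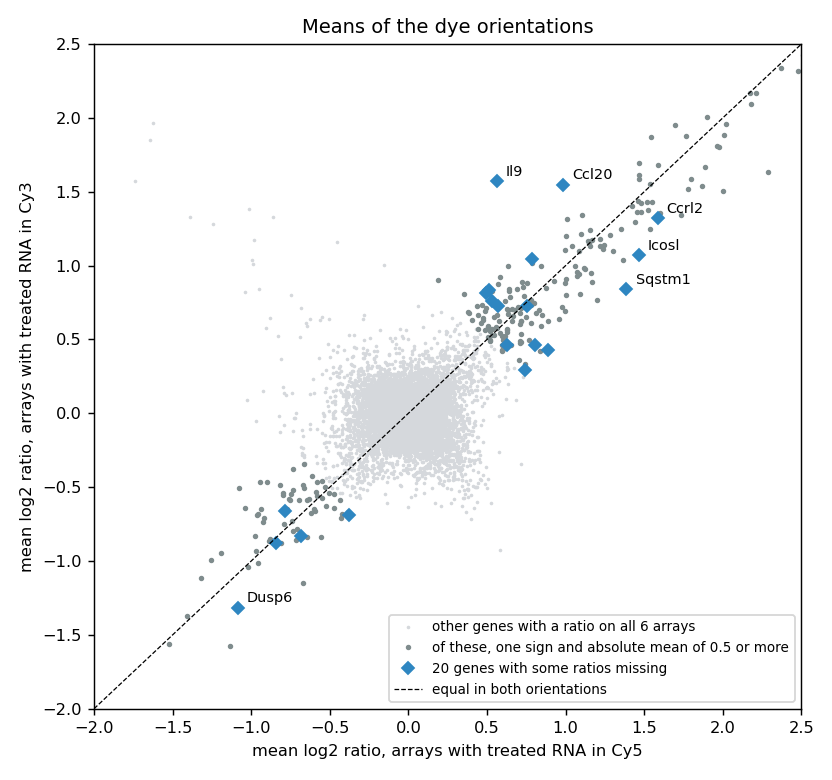
Mean log2 ratio of treated over untreated RNA on the Cy5 arrays (horizontal axis) and on the Cy3 arrays (vertical axis), for 20 of the 21 genes (diamonds) and for genes with a ratio on all 6 arrays (dots, 21 of which lie outside the axes). Il9 and Ccl20 lie above the dashed line of equality, and Sqstm1 and Icosl below it.

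The rule limited how many arrays hold a 0 and named none of them. Its sign and size conditions were put to the arrays that remained, so they also bear on which could be missing. The shares by array are therefore a description. Of the 22 probes, 16 were listed at 0 on 1 array, 4 on 2 arrays and 2 on 3 arrays. For the 2012 such probes of the 1861 genes without a complete probe, the shares were 60.1%, 27.0% and 12.9%. The Cy3 array of set 2 held the 0 of 16 probes (72.7%), close to its 71.9% among all 3135 probes listed at 0 on 1 to 3 arrays. The Cy5 array of set 2 held 3 (13.6%, against 39.1%), and the Cy5 array of set 1 held 5 (22.7%, against 6.25%). Those 5 were Dusp6, Icosl, Sqstm1, Slc47a1 and 4930402H24Rik. With the 5 genes that were left out by name, 8 of 27 probes were listed at 0 there. The remaining arrays held 1, 3 and 2 of the 22. Over the whole table, exact zeros made up 9.0% to 23.9% of the values of an array, with the most on the arrays of set 2. When zeros were kept as ratios of 0, 12 genes were higher and 4 lower by the rule, and with 3 zeros not allowed, 14 and 5.

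**Figure D3:**
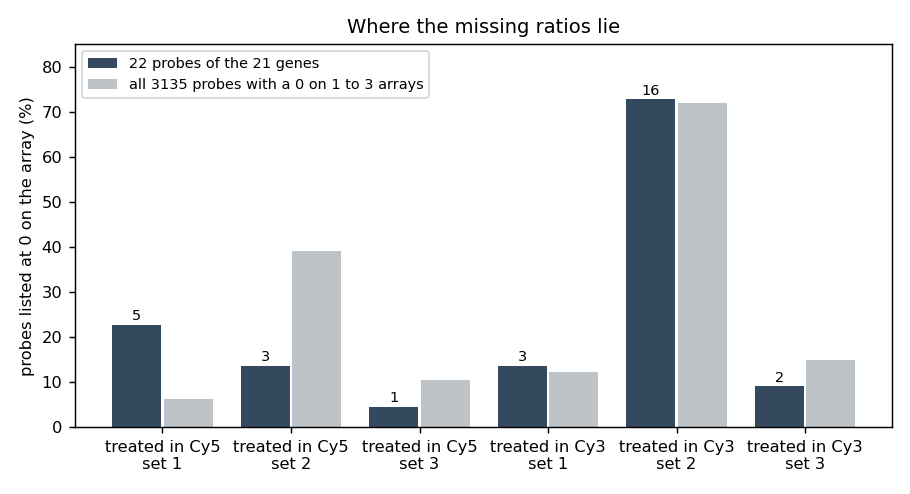
Share of probes listed at 0 on each array (vertical axis, percent), for the 22 probes of the 21 genes (dark bars, with counts) and for all 3135 probes listed at 0 on 1 to 3 arrays (light bars). The Cy3 array of set 2 holds most zeros in both, and the Cy5 array of set 1 holds 5 of the 22.

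Of the 21 genes, 13 had a single probe and 8 had several. Apart from Ccl20, whose probes both met the rule, the second probes that were measured gave smaller mean ratios. Choosing the first probes on the size and sign of these ratios favours such a difference. The second probe of Ccrl2 gave -0.01, 0.33 and -0.41 on the Cy5 arrays and 0.31 on the Cy3 array of set 1, with a mean of 0.05 ± 0.34 (SD, n = 4 arrays) against 1.48 for the first. That of Pglyrp2 gave -0.31, -0.03 and 0.16 on the Cy5 arrays and 0.70 and -0.23 on the Cy3 arrays of sets 1 and 3, with a mean of 0.06 ± 0.40 against 0.64. That of Cdk5r1 had mixed signs too, with a mean of 0.22 ± 0.40 (n = 5 arrays) against 0.53.

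The probes of these 3 genes thus disagreed, and the ratios above hold for the qualifying probe only. The second probes of Gem (-0.20) and Il9 (0.36) had a ratio on the Cy5 array of set 1 alone, and those of Icosl and Itga5 were listed at 0 on all arrays.

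**Figure D4:**
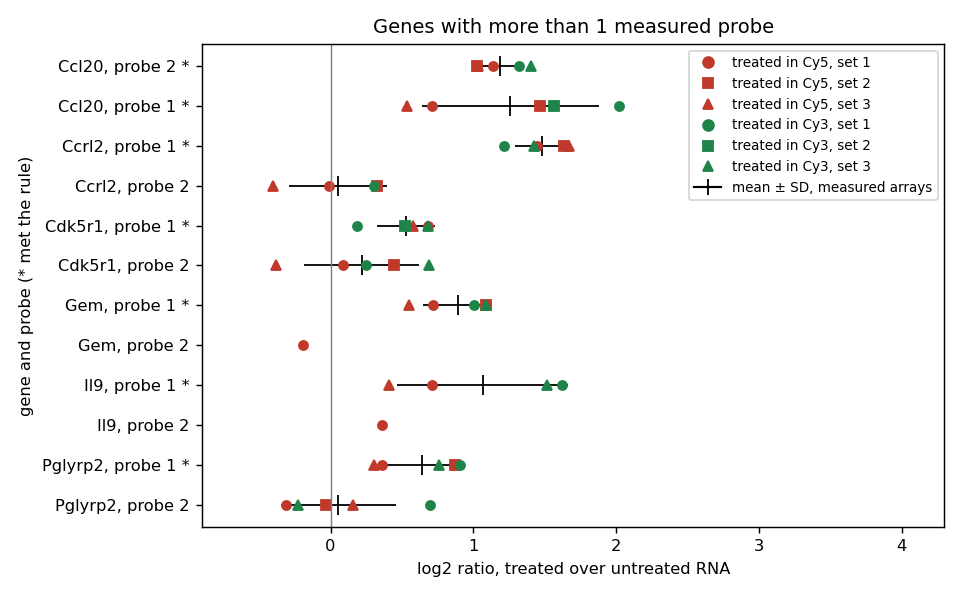
Log2 ratios of treated over untreated RNA (horizontal axis) for each probe of the 6 genes with more than 1 measured probe. Asterisks mark probes that met the rule, symbols show dye orientation and set, and black bars show the mean ± SD where more than 1 array was measured. Both probes of Ccl20 lie above 0.5 on every measured array, whereas the second probes of Ccrl2, Cdk5r1 and Pglyrp2 spread across 0.

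At the threshold, the members just inside were Cdk5r1 (0.53) and Sult4a1 (0.58) on the higher side and Zkscan14 (-0.50) and 4930402H24Rik (-0.71) on the lower side. Just outside were the serotonin receptor gene Htr4 (0.50, under the threshold before rounding) and the Myc-family gene Mycl (0.46), and, on the lower side, the mitochondrial glutamyl-tRNA synthetase gene Ears2 (-0.43) and the signalling inhibitor gene Smad6 (-0.39). Every measured array was at 0.5 or more in absolute value for 8 of the 21 genes. They were Ccrl2, Icosl, Ccl20, Sqstm1, Gem, Dusp6, Zfp398 and Klhl25. This is met more easily on fewer arrays, and no share among the genes without missing ratios is given beside it.

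For the 8331 genes without missing ratios, limma on the set averages called 580 higher (6.96%) and 517 lower (6.21%) at an adjusted p under 0.05, together 13.2%, and 296 and 203 without set 1. The members were not part of that fit. Each of 4 members belongs to a list of related genes. Of the chemokine list, which holds Ccl20, 6 of the 18 genes measured on all arrays were called higher and 0 lower (2 lower at an unadjusted p under 0.05, and 0 with the 6 arrays fitted separately), with a median ratio of 0.07. For MAP kinase feedback and mRNA decay, which holds Dusp6, 15 of 26 were called higher and 2 lower, with a median of 0.58, whereas Dusp6 itself averaged -1.22.

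In the list of inflammatory enzymes and effectors, which holds Arg2, 16 of 27 were called higher and 0 lower (0 lower also at an unadjusted p under 0.05 and with the 6 arrays fitted separately), with a median of 0.34. In that of surface receptors and costimulation, which holds Ccrl2, 6 of 29 were called higher and 1 lower, with a median of 0.06. The median over all genes tested was -0.01. Of the cell type markers on the array, 14 of 14 for macrophages, 9 of 13 for lymphocytes and 5 of 14 for fibroblasts and epithelium had ratios on all 6 arrays, against 77.9% of the 10698 genes. Ratios give no expression level, so the labelled cell type could not be checked from them, and whether Il7r, Il9, Otor or Krt31 were well expressed in these cells could not be read either.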

How the data were processed

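RNA of untreated and LPS- and LBP-treated RAW 264.7 cells was compared on 6 dual-channel arrays. Per probe and array, the authors deposited a log2 ratio of both channels (16281 probes). The base was read from the values, 99.97% of which are log10 numbers of 6 digits (relative tolerance 1e-12) divided by log10 of 2. Scanner, background correction and normalization are not given in the sources used here. Array medians of the measured ratios lay between 0.0043 and 0.0159, and how the arrays were centred is unknown. Signal over background is unknown too, as no intensities were used. The direction was taken from the labels. Before turning, 169 of the 200 complete probes of largest mean absolute ratio had opposite signs in the 2 orientations, so the Cy3 arrays were multiplied by -1.

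Exact zeros were treated as missing. Members' ratios were averaged over measured arrays, and over probes that met the rule on the same array. Every member is named, as the rule for named genes asks with 40 or fewer. The members and gene lists were chosen with earlier results of these data known. For background, probes with 1 symbol and 6 ratios were averaged to 8331 genes, and the 3 set averages were tested against 0 with limma 3.58.1 (two-sided, 2 residual degrees of freedom, prior of 4.08, Benjamini-Hochberg adjustment), after a test on simulated data. Their p-values rest on the spread between sets alone. Gene identifiers of 13694 of 13738 probes were found in RefSeq, which changed 0 symbols. No build is named for the probes, so coordinates are those of the RefSeq promoter table. Figures were drawn with matplotlib 3.10.9. Alternatives were other averages, thresholds, centring, sets left out, single orientations and zeros kept.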

Additional observations from a re-analysis of the deposited data

Results flagged for a closer look

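Icosl was the only one of 20 member probes with 4 or 5 measured arrays to have an array set apart from the others. Its ratio on the Cy3 array of set 1 was 0.66, while its other 3 ratios lay between 1.45 and 1.48, a gap that exceeded the critical value for 4 values. Chance flags about 1 in 20 such groups, a rate that need not hold for genes chosen on these same ratios, so this is a description. Without set 1 the mean of Icosl was 1.47 in place of 1.27.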

How the results depend on the processing

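With a threshold of 1 in place of 0.5, 5 members were higher and 1 was lower. Under the other alternatives 12 to 16 genes were higher and 4 or 5 lower. Leaving out set 1, 2 or 3 left 14 to 16 and 4 to 5, and leaving out either array of set 2, chosen after seeing the data, left 14 to 16 and 4 to 5. With zeros kept as ratios, 12 and 4 remained, and Cdk5r1, Krt31, Slc47a1, Sult4a1 and Zkscan14 were under the threshold. Members were chosen for a single sign, so most recomputed means had to keep it, and none changed sign in 209 recomputed values. In 6 of them, all with zeros kept, the mean moved by more than its SD, as zeros pull it towards 0 by construction.

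For genes with a ratio on all arrays, the 580 higher and 517 lower calls became 296 to 471 and 203 to 387 with a set left out, where fewer averages remain. They were 536 and 499 with the Cy5 arrays alone and 383 and 266 with the Cy3 arrays alone. Over wider sets of genes, the calls were 286 and 236 with zeros kept (10698 genes tested) and 367 and 288 with incomplete probes included (10261 genes tested). The cause was not tested. Same-numbered arrays deviated from their orientation means with r = 0.0056, -0.26 and -0.064. These values cannot show whether arrays of a set share RNA or handling, and both arrays of set 2 held the most zeros (17.7% and 23.9%). The fit with no replicate block, of 6 arrays with a dye term, called 758 and 681. Without intensities, the limit that signal over background sets on these ratios is unknown.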

Other observations

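Another 12 probes of genes without a complete probe had an absolute mean of 0.5 or more but mixed signs after turning, and so were not members. In 10 of them the signs split by dye orientation, with the Cy5 arrays negative and the Cy3 arrays positive. Lhx1 gave -2.98 on the Cy5 array of set 1 and 3.75 and 3.43 on the Cy3 arrays of sets 1 and 2. Kcnj12 gave -2.76 and -3.88 on the Cy5 arrays of sets 1 and 2 and 3.48 on the Cy3 array of set 1. Gabrr1, Mcpt1, Il9r, Stk39, Lrp2, Atp5j, Slc26a3 and Gfra2 had the same pattern. Before turning, the ratios of these 10 probes were therefore all negative, that is, lower in Cy5 than in Cy3 whichever RNA carried the dye.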
